A study of Mus musculus with 39 samples.

Results

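The genes described here are the core of a co-expression module that the authors named pink. A co-expression module is a set of genes whose levels go up and down together across libraries, and module membership is a gene's correlation with the common profile of its module. Of 13624 genes in the authors' deposited co-expression table, 533 carried the pink name, and 447 of these had a row in the expression table of 10915 entries. After 49 members of 10 large families (among them zinc finger, solute carrier, ribosomal protein and proteasome genes) were left out, 398 genes remained, and the core was chosen by the authors' measured pink membership: the 150 highest were kept.

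The study asked how immune stimulation in early adulthood affects microglia, the resident macrophages of the brain, months later, in normal mice and in a model of brain amyloid. All animals were female mice on the C57BL/6J background. APP23 mice were hemizygous for human amyloid precursor protein with the KM670/671NL mutation, expressed from the Thy-1 promoter and so mainly in neurons rather than in the microglia studied, and wildtype mice were their littermates. Polyadenylated RNA of sorted microglia was sequenced at 9 months of age. Injections were given into the peritoneum at 3 months of age, on 4 days in a row in every animal. PBS animals received only vehicle, 1xLPS animals received bacterial lipopolysaccharide (LPS) at 500 µg/kg on the first day and vehicle on the other 3, and 4xLPS animals received that dose of LPS each day. Wildtype mice gave 9 libraries after PBS, 9 after 1xLPS and 6 after 4xLPS, and APP23 mice gave 6, 5 and 4. Whether each library is a mouse of its own is not in the labels, so the p-values speak of differences between libraries, part of which may be technical.

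LPS is sensed by Toll-like receptor 4, and macrophages exposed to it can respond differently to a later stimulus, either more strongly (training) or less (tolerance). The functions most frequent among the members, membrane traffic and RNA metabolism, are needed in every cell and carry no mark of a single cell type. Co-expression alone does not show that genes are controlled by a common factor.

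The values are corrected log2 expression, and all differences below are on that log2 scale. Levels of the 150 members ran from 4.23 for Ube2s, a ubiquitin-conjugating enzyme of mitosis, to 12.03 for Mlec, a carbohydrate-binding protein of the endoplasmic reticulum, with a median of 9.18 against 9.26 over all entries. The standard deviation of a member around its group means had a median of 0.039, against 0.041 over all entries. All 11 microglia markers were measured, at levels from 10.4 to 13.7, and their mean was 12.47 in wildtype PBS and 12.50 to 12.51 in the other 5 groups. Markers of other cells were few: 1 of 7 for neurons, 2 of 6 for astrocytes, 4 of 6 for oligodendrocytes, 2 of 6 for endothelial cells, 2 of 6 for monocytes and neutrophils, 4 of 7 for border macrophages, 3 of 6 for dendritic cells and 0 of 6 for lymphocytes had a value. The neuronal gene Rbfox3 had a mean of 5.62 in wildtype PBS and 5.63 to 5.70 elsewhere. The mean of the monocyte and neutrophil markers was 7.90 in wildtype PBS and 7.80 to 7.87 elsewhere. Over all 6 groups the means ran from 8.43 to 8.46 for astrocytes, from 9.32 to 9.37 for oligodendrocytes, from 8.87 to 8.93 for endothelial cells, from 8.49 to 8.60 for border macrophages and from 7.47 to 7.59 for dendritic cells. After PBS, Ccr2, a monocyte chemokine receptor, was lower in APP23 than in wildtype by a difference of -0.23 ± 0.057 (limma adjusted p = 0.0329), and Stab1, a scavenger receptor of border macrophages, was higher by 0.067 ± 0.017 (adjusted p = 0.0336). The part of these markers in the results below was not tested. In bulk RNA, fewer cells of a type and less RNA per cell cannot be told apart.

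Module membership in the core, in the authors' deposited table, ran from 0.483 to 0.763 with a median of 0.552. Just inside the limit stood Btbd10 (0.486), Mum1 (0.483) and Tmem186 (0.483), and just outside it Gnl2 (0.481), Rad1 (0.478) and Kantr (0.477). These memberships come from the same 39 libraries that are compared below. Group labels were not used to rank the members, but whether they entered the authors' correction of the values is not stated. The shared profile did enter the choice, so the members are not independent of each other. A count of called members supports nothing beyond itself.

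The pink core was low in wildtype PBS microglia and higher in the other 5 groups. The mean over the 150 members was 8.943 ± 0.014 (SD, n = 9) in wildtype PBS, with libraries from 8.924 through a median of 8.943 to 8.968. In wildtype 1xLPS it was 8.984 ± 0.013 (n = 9; 8.964, 8.990, 8.999), and in wildtype 4xLPS 9.004 ± 0.011 (n = 6; 8.985, 9.004, 9.017). Among APP23 libraries it was 8.994 ± 0.011 (n = 6; 8.974, 8.998, 9.003) after PBS, 8.980 ± 0.013 (n = 5; 8.967 to 8.999) after 1xLPS and 8.981 ± 0.0037 (n = 4; 8.977 to 8.986) after 4xLPS. Of the 30 libraries outside wildtype PBS, 27 lay above the highest wildtype PBS library, while the 3 APP23 groups overlapped each other. This is a description with no test, since the members were chosen for moving together.

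**Figure D1:**
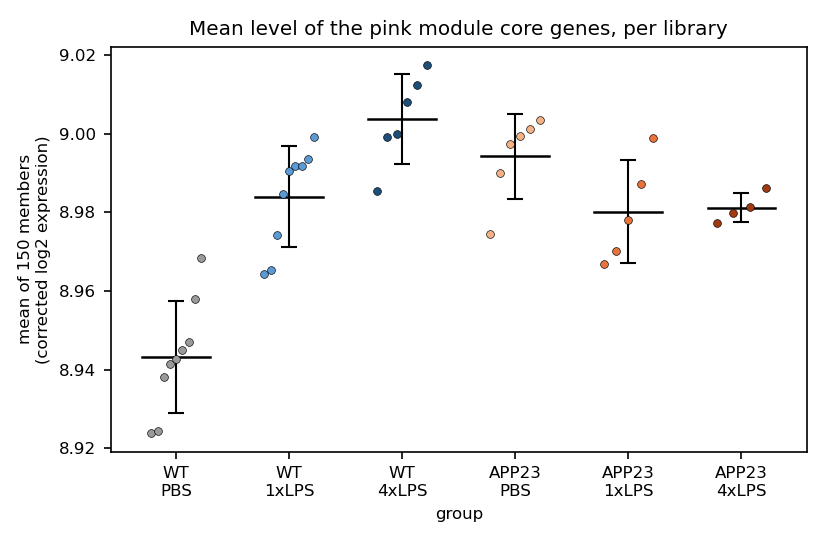
Mean corrected log2 expression of the 150 pink core genes (vertical axis) for each of 39 libraries, by group (WT, wildtype). Points are libraries, horizontal lines are group means and bars are SDs over libraries; the wildtype PBS libraries lie between 8.924 and 8.968, and 27 of the other 30 lie above that range.

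Gene by gene, the lowest of the 6 group means was in wildtype PBS for 132 members (21.7% of all entries had their lowest mean there), in APP23 1xLPS for 10, in APP23 4xLPS for 6 and in APP23 PBS for 2. The highest mean was in wildtype 4xLPS for 65 members, in APP23 PBS for 37, in APP23 4xLPS for 20, in APP23 1xLPS for 15 and in wildtype 1xLPS for 13, and in wildtype PBS for none of the 150. In a moderated F test across the 6 groups (limma, Benjamini-Hochberg adjusted over all entries), 15 members were called at adjusted p under 0.05, where 2.13% of all entries were called. The count was 26 without wildtype 1xLPS replicate 3 or replicate 9, 24 without replicate 8 of that group, 25 without APP23 1xLPS replicate 5, and 85 with 33 residual degrees of freedom counted, 9 more than the corrected values hold (21.1% of entries). For this and later counts without 1 library, the share of all entries called is not given. Such counts do not show whether the members or all entries moved. Around the group means, a member's correlation with the mean of the 150 had a median of 0.33 and ran from -0.040 to 0.76 across members, against a median of 0.56 (0.39 to 0.78) when group differences were kept. The mean of the 150 includes the member itself, which raises both correlations somewhat.

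**Figure D2:**
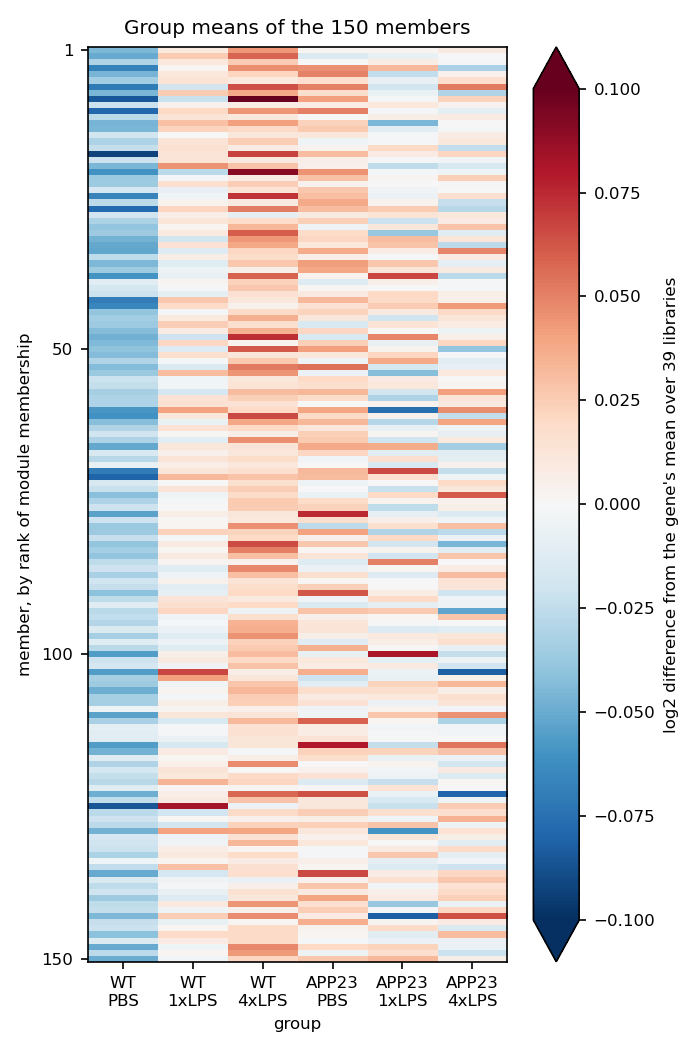
Group means of the 150 members (rows, from the highest module membership at the top) in 6 groups (columns), as log2 difference from each gene's mean over 39 libraries, colour limited to 0.1 either way. The wildtype PBS column is the lowest of the 6 for 132 members.

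The core ran opposite to some other modules. In the authors' deposited table, the module with the strongest other correlation was yellow for 56 members, red for 34 and black for 33. For some members, among them Nme3 and Pspc1, that other correlation was larger in size than the membership in pink. Over the core, the median correlation with the yellow module was -0.373 and with the black module -0.297, while with the red module it was 0.323. The authors' correlation of each gene with a 1xLPS trait had a median of 0.044 in the core and ran from -0.441 to 0.534.

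The member with the highest membership (0.763) was Ipp, a kelch-domain protein that binds actin. Its wildtype PBS libraries had a lowest level of 8.70, a median of 8.71 and a highest of 8.77, against 8.73, 8.82 and 8.88 after 4xLPS. The groups overlapped, and Ipp was higher after 4xLPS by 0.089 ± 0.023 (SE; limma adjusted p = 0.0454), with 6 of 6 libraries above the wildtype PBS mean. Pebp1, an inhibitor of the Raf kinase, and Rcl1, a nucleolar protein of ribosomal RNA processing, also stood among the 12 named members with the highest membership but were called in no comparison. After wildtype 4xLPS, Pebp1 differed from PBS by 0.029 ± 0.011 (limma adjusted p = 0.157) and Rcl1 by 0.037 ± 0.021 (limma adjusted p = 0.372).

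**Figure D3:**
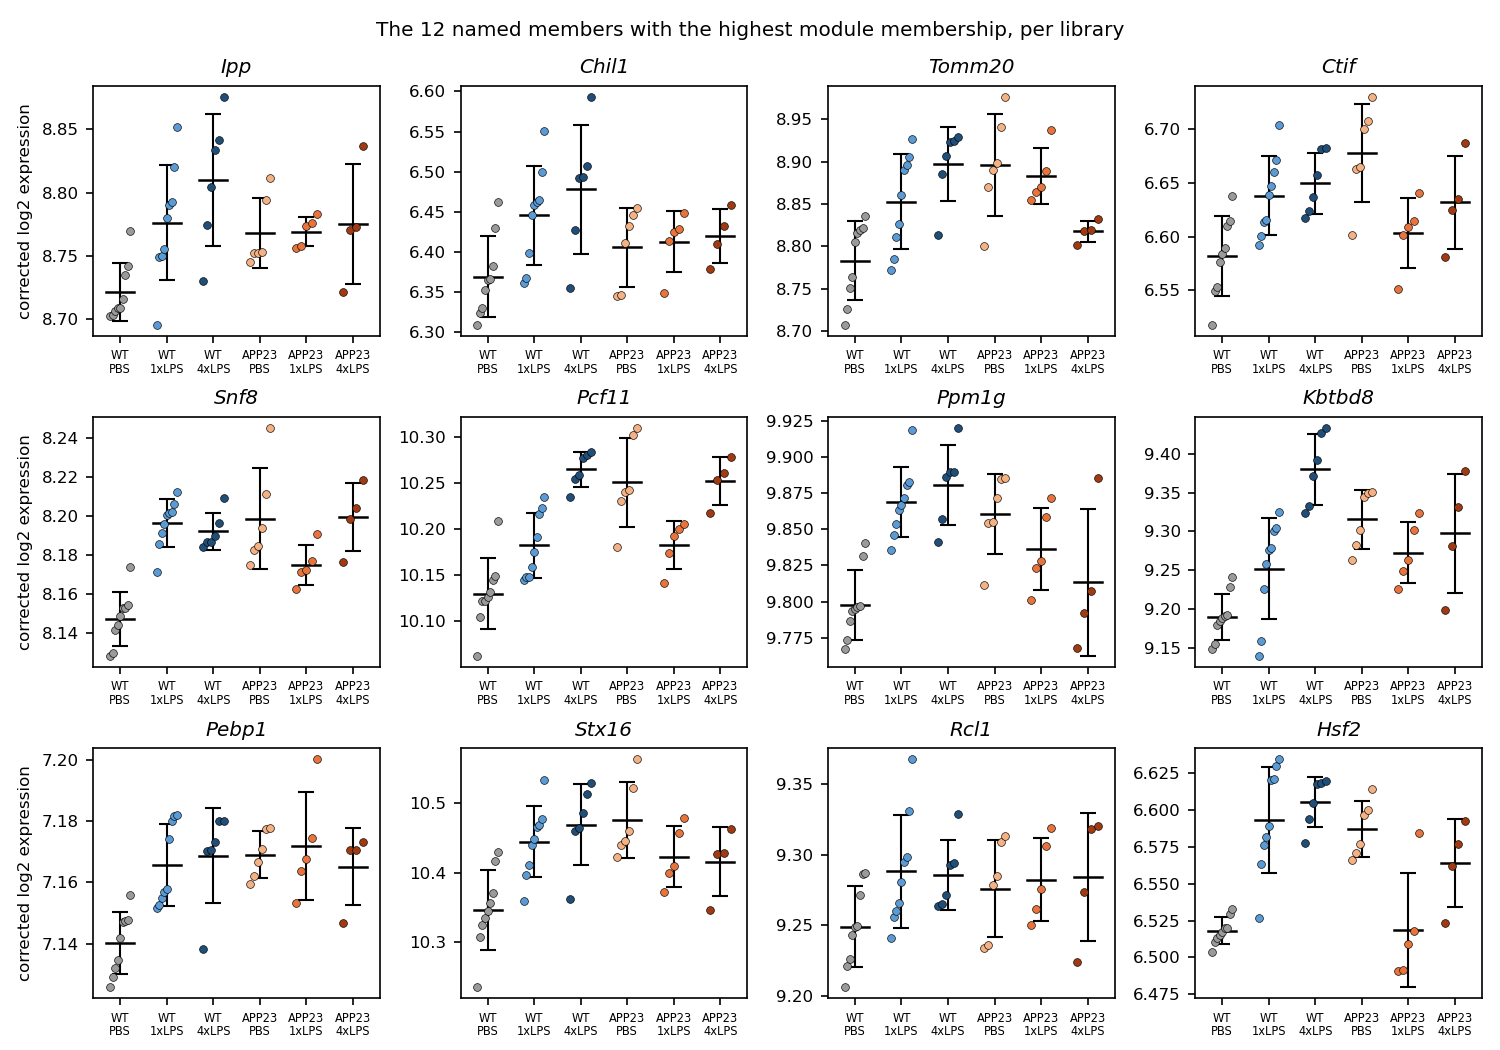
Corrected log2 expression (vertical axis, a separate scale for each gene) of the 12 named members with the highest module membership, in each of 39 libraries by group (WT, wildtype). Points are libraries, horizontal lines group means and bars SDs; in all 12 panels the wildtype PBS mean is below those of wildtype 1xLPS, wildtype 4xLPS and APP23 PBS.

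Promoter windows of RefSeq (GRCm38.p6, 250 bases before to 50 after a start) were at hand for 125 of the 150 members. Those of 4 genes the results turn on are printed 5′ to 3′ on the strand of the gene, with motif matches in capitals: Kbtbd8 (chr6:95117630-95117929, plus strand) and Pcf11 (chr7:92669863-92670162, minus strand), which had the smallest adjusted p after wildtype 4xLPS, Hsf2 (chr10:57486135-57486434, plus strand), which was called in 3 comparisons against wildtype PBS, and Tomm20 (chr8:126945872-126946171, minus strand), a top member by membership. The capitals mark CCAAT (the NF-Y box) and GGGCGG (the GC box) in Kbtbd8, Pcf11 and Hsf2, CACGTG (an E-box) overlapping ACGTGC (the hypoxia response element core) in Hsf2 and Tomm20, and the GC box and TGANTCA (AP-1) in Tomm20, on either strand.
Kbtbd8: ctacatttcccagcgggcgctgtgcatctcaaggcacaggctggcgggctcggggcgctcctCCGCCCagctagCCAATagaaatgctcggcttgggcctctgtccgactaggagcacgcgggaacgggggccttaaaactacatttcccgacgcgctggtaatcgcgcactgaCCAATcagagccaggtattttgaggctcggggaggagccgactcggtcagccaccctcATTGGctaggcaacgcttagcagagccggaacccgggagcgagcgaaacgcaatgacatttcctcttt
Pcf11: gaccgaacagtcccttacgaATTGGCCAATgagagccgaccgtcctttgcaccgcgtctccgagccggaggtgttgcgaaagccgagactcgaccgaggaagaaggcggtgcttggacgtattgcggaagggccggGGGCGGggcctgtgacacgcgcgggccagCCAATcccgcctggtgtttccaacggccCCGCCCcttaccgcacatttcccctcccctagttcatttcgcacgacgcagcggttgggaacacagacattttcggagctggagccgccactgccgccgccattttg
Hsf2: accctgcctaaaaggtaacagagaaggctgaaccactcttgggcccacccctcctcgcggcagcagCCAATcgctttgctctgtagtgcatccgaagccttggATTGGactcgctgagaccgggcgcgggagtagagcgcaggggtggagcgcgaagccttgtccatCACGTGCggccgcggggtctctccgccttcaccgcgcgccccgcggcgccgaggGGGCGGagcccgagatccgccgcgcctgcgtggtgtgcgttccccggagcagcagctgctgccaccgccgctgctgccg
Tomm20: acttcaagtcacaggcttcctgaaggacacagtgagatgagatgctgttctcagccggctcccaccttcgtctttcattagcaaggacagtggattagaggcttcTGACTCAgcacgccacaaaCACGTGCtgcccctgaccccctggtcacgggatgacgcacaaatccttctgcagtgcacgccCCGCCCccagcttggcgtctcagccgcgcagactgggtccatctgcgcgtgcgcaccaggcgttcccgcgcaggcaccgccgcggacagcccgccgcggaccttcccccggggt
A CCAAT match was found for 44.8% of members with a window, 42.9% of all genes of the table with one and 37.4% of all windows of the reference. The GC box was found for 64.0%, 69.3% and 35.7%, the E-box for 15.2%, 12.3% and 7.15%, and CCGGAAGT (ETS) for 12%, 10.2% and 3.89%. GAGGAAGT (PU.1) was found for 2.4%, 3.89% and 3.2%, AP-1 for 4.0%, 5.79% and 7.81%, and TATAAA (the TATA box) for 5.6%, 8.25% and 13.6%. The median GC content was 60.3% in members' windows and 60.7% in those of the table's genes. A match to letters is a description and not a bound site.

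The members lay on 20 chromosomes, with at most 14 on 1 of them (chromosome 2). In the GENCODE M21 annotation, 57 of the 150 (38% against 32.9% of the table's genes) had an exon overlapping a gene on the other strand. No source used here states whether counting was by strand, and reads of such pairs cannot be told apart. Among the members called in any contrast this holds for 12, namely Pcf11 (with Gm26944), Enkd1 (with 4933405L10Rik), Sult1a1 (with Sgf29), Orc2 (with Nif3l1), Marf1 (with Nde1 and Mir484), Ctif (with Gm10532), Atl1 (with Map4k5 and Sav1), Nme3 (with Mapk8ip3), Serf1 (with BC001981), Gm15545 (with Bcl2l12), and Preb and Abhd1, which overlap each other. An exon of Atl1, Marf1, Nme3 and Pigc also overlaps a gene on the same strand (Gm3086, Gm27671, Mrps34 and Gm38304), so their values are uncertain in the same way. Amd1 and Amd2, Hist1h4i and Mcts2 have near-identical copies, and their single values are uncertain.

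In wildtype microglia the whole core lay above PBS after LPS, by small amounts. After 4xLPS all 150 members had a positive difference from PBS, with a median of 0.056 (0.0080 to 0.19) against 0.0023 over all entries. Of the 150, 24 were called higher (limma adjusted p under 0.05), where 0.88% of all entries were called higher, and, with no negative difference, 0 were called lower, where 0.632% were. In 19 members every 4xLPS library lay above every PBS library, which held for 0.861% of all entries. After 1xLPS all 150 differences were again positive, with a median of 0.035 (0.0047 to 0.17) against 0.0014 over all entries. There 6 members were called higher, where 0.302% of all entries were, and 0 lower, where 0.137% were. Both comparisons share the wildtype PBS libraries, and the profile that chose the members fixes the direction in part, so nothing is read from the agreement. Without wildtype 4xLPS replicate 6 the count after 4xLPS was 13. With 33 degrees of freedom the counts were 87 after 4xLPS and 44 after 1xLPS, where 5.08% and 3.34% of all entries were called higher.

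Between 4xLPS and 1xLPS in wildtype mice, 121 members were positive and 29 negative, with a median of 0.017 (limma). No member was called, where 0.00916% of entries were called in each direction; 23 members had an unadjusted p under 0.05, as did 9.13% of all entries, and the smallest adjusted p was 0.147. Pcf11 was the only member whose 4xLPS libraries all lay above the 1xLPS libraries, which held for 0.247% of entries.

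In APP23 microglia no member was called after LPS. After 1xLPS 51 members were above APP23 PBS and 99 below it, with a median difference of -0.012, and after 4xLPS the split was again 51 and 99, with a median of -0.010. No member was called by limma in either comparison or between 4xLPS and 1xLPS (median 0.0027), where 0% of all entries were called too. At unadjusted p under 0.05 there were 18, 16 and 16 members, against 8.47%, 7.62% and 9.74% of all entries, and the smallest adjusted p-values were 0.282, 0.390 and 0.165. A p above the threshold does not show that the groups were alike. After 1xLPS 1 member had all libraries above those of PBS and 3 had all below, as did 0.953% and 1.02% of entries. After 4xLPS 0 were above and 6 below those of PBS (1.41% and 1.03% of entries), and against 1xLPS 3 were above and 3 below (2.97% and 2.76%). The comparisons with PBS share the APP23 PBS libraries.

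**Figure D4:**
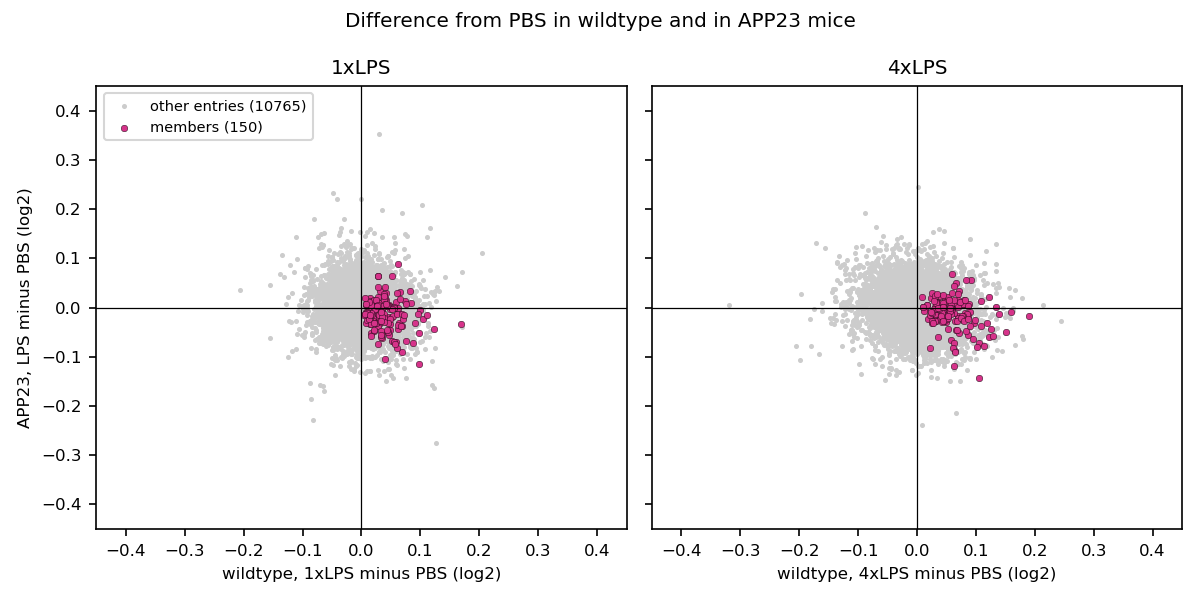
Log2 difference from PBS in wildtype mice (horizontal axis) and in APP23 mice (vertical axis) after 1xLPS (left) and 4xLPS (right), for the 150 members (pink) and the other 10765 entries (grey). All 150 members lie right of 0 in both panels, with 51 above and 99 below 0 on the vertical axis in each.

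Without LPS, APP23 microglia had a higher core than wildtype microglia. The median difference after PBS was 0.044 (-0.0024 to 0.14), with 148 members positive, against 0.0021 over all entries. The number called higher was 22 (limma), where 1.36% of all entries were called higher, and 0 were called lower, where 1.15% were. In 13 members all APP23 libraries lay above all wildtype libraries (0.962% of entries). This comparison uses the same wildtype PBS libraries as the wildtype responses to LPS. The profile that chose the members fixes its direction in part too, so it is no independent finding. The count was 14 without APP23 PBS replicate 4, 12 without APP23 PBS replicate 6, and 56 with 33 degrees of freedom (5.38% of entries). The labels say that pools for sequencing were made within a genotype, so genotype and sequencing run cannot be told apart here. After 1xLPS the genotypes had a median difference of 0.00014, with 75 members on each side of 0; after 4xLPS it was -0.019, with 33 positive and 117 negative. After 1xLPS 0 members were called higher and 1 lower, where 0.174% and 0.156% of entries were, with 19 members at an unadjusted p under 0.05 (12.9% of entries), and after 4xLPS 0 were called either way, where 0% of entries were, with 15 members at an unadjusted p under 0.05 (9.54% of entries) and a smallest adjusted p of 0.198. All APP23 libraries lay above all wildtype libraries for 0 members and below them for 2 after 1xLPS (0.788% and 0.88% of entries), and for 0 and 6 after 4xLPS (1.85% and 1.53%).

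The difference between genotypes in the LPS response was tested directly as an interaction, the APP23 difference from PBS minus the wildtype one. For 1xLPS it was negative in 141 members (median -0.049) and called in 2, both negative, where 0.0183% of entries were called negative. For 4xLPS it was negative in 147 (median -0.062) and called in 9, all negative, where 0.266% of entries were called negative and 0.257% positive. The 9 were Tmem110, Kbtbd8, Tomm20, Sec16a, Nthl1, Ppm1g, Pigc, Sult1a1 and Hsf2. Both interactions share the PBS libraries of the 2 genotypes. The profile that chose the members is low in wildtype PBS and fixes the negative sign in part, so nothing is read from the shared sign. The count was 2 without APP23 4xLPS replicate 1, 5 without APP23 4xLPS replicate 3, APP23 4xLPS replicate 4 or APP23 PBS replicate 1, and 44 with 33 degrees of freedom (2.94% of entries). The count for 1xLPS was 1 without any of APP23 1xLPS replicate 4, APP23 PBS replicates 3 and 5, wildtype 1xLPS replicates 3 and 7 and wildtype PBS replicate 9, was 5 without wildtype 1xLPS replicate 9, and was 23 with 33 degrees of freedom (1.92% of entries).

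By role, 118 of the members fell into 9 classes. The classes and the named members follow from the outer machinery of the cell to its nucleus and metabolism; members that were called but stand outside the naming rule are given because they were called, and were chosen after their values were seen. In each class the median differences in wildtype 4xLPS and in APP23 PBS against wildtype PBS were positive, from 0.032 for the 3 immune genes to 0.083 for the 8 genes of centrosome, cilium and cytoskeleton after 4xLPS. Since all 150 members were positive after wildtype 4xLPS and 148 in APP23 PBS, the sign of these medians says nothing about a role. Of the core, 16% were called higher after wildtype 4xLPS, 14.7% in APP23 PBS and 4% after wildtype 1xLPS. Of all entries, 0.88%, 1.36% and 0.302% were. The counts of called members per class below stand beside these shares, and no class was tested against the core.

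**Figure D5:**
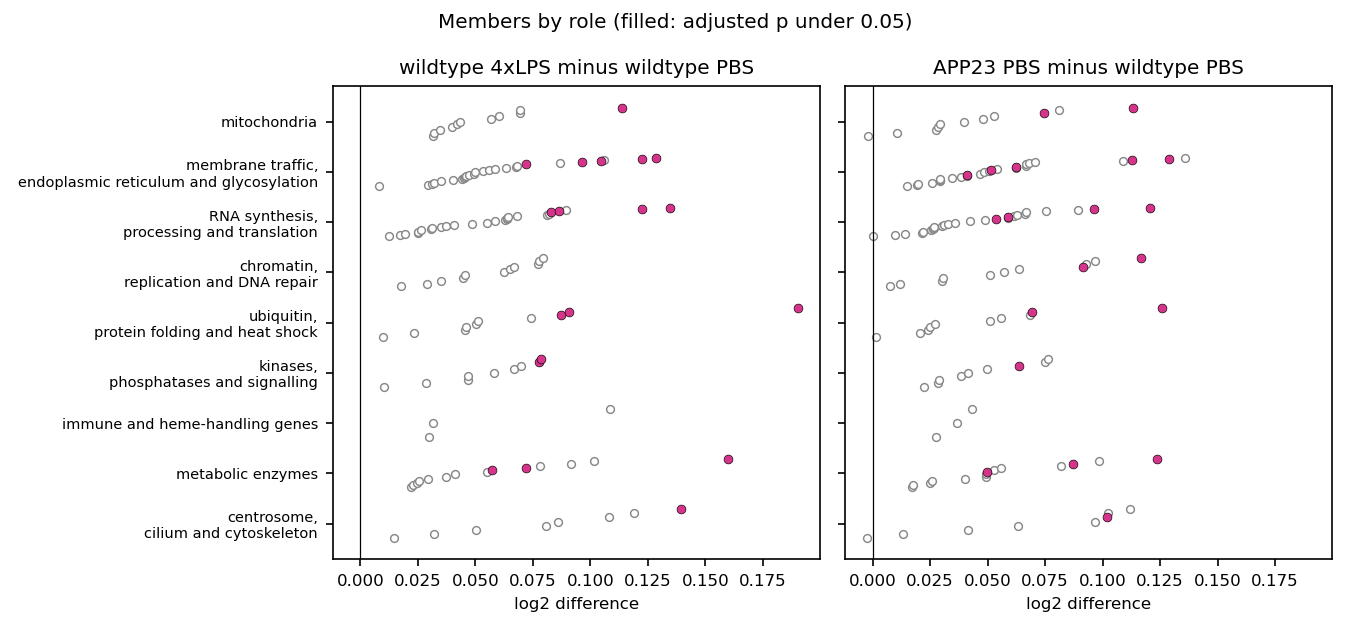
Log2 difference from wildtype PBS for members of 9 roles (rows), in wildtype 4xLPS (left) and APP23 PBS (right). Each point is 1 gene and filled points passed limma's adjusted p under 0.05; the farthest filled point on the left is Kbtbd8 at 0.19.

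Mitochondria were represented by 11 members, of which 1 was called higher after wildtype 4xLPS and 2 in APP23 PBS. Tomm20 is a receptor of the outer membrane that recognises proteins to be imported. Its wildtype PBS libraries had a lowest level of 8.71, a median of 8.81 and a highest of 8.84, its wildtype 4xLPS libraries 8.81, 8.91 and 8.93, and its APP23 PBS libraries 8.80, 8.89 and 8.98. The APP23 4xLPS libraries stood at 8.80, 8.82, 8.82 and 8.83 and the APP23 1xLPS libraries at 8.85, 8.86, 8.87, 8.89 and 8.94, so all APP23 4xLPS libraries lay below all APP23 1xLPS libraries, which held for 2.76% of all entries. Tomm20 rose by 0.11 ± 0.029 after wildtype 4xLPS (SE; limma adjusted p = 0.0394) and was higher by 0.11 ± 0.029 in APP23 PBS (limma adjusted p = 0.0336). Its interaction for 4xLPS was -0.19 ± 0.045 (limma adjusted p = 0.0430), a call that was lost without any single one of 11 libraries: the 4 of APP23 4xLPS, APP23 PBS replicates 1 and 2, wildtype 4xLPS replicates 1, 2, 3 and 6 and wildtype PBS replicate 4 (adjusted p 0.0503 to 0.0755). Chchd6, a subunit of the complex that shapes the inner membrane, was higher in APP23 PBS by 0.074 ± 0.019 (limma adjusted p = 0.0333). Timm8b, a small carrier of proteins between the membranes, differed by 0.043 ± 0.016 after wildtype 4xLPS (limma adjusted p = 0.144). Of the list of complex III, assembly and import genes, 34 were measured, and Tomm20 was the only one called after wildtype 4xLPS or in APP23 PBS.

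Membrane traffic, endoplasmic reticulum and glycosylation formed, with RNA metabolism, one of the largest classes (26 members each), with 5 called higher after wildtype 4xLPS, 5 in APP23 PBS and 1 after wildtype 1xLPS. Stx16 is a fusion protein (SNARE) of the trans-Golgi network. Its libraries ran from 10.24 through 10.35 to 10.43 in wildtype PBS, from 10.36 through 10.48 to 10.53 in wildtype 4xLPS and from 10.42 through 10.45 to 10.56 in APP23 PBS, so that both groups overlapped wildtype PBS. It rose by 0.12 ± 0.031 after wildtype 4xLPS (limma adjusted p = 0.0438) and was 0.13 ± 0.031 higher in APP23 PBS (limma adjusted p = 0.0309), the latter call being lost without APP23 PBS replicate 1 (adjusted p = 0.0591) or replicate 5 (adjusted p = 0.0516). Snf8, a subunit of the ESCRT-II complex that sorts cargo into endosomal vesicles, moved little but evenly. Its wildtype PBS libraries ran from 8.13 through 8.15 to 8.17 and its wildtype 1xLPS libraries from 8.17 through 8.20 to 8.21, a rise of 0.049 ± 0.011 (limma adjusted p = 0.0417). In APP23 PBS (8.17, 8.19 and 8.25) all Snf8 libraries lay above wildtype PBS, by 0.051 ± 0.013 on average (limma adjusted p = 0.0315).

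Pigc, part of the enzyme that begins the glycosylphosphatidylinositol (GPI) anchor, had the smallest adjusted p of the traffic class after wildtype 4xLPS. The libraries stood at 9.91, 9.95 and 9.99 (lowest, median and highest) in wildtype PBS and at 10.03, 10.04 and 10.07 in wildtype 4xLPS, with no overlap. The Pigc difference was 0.096 ± 0.016 (limma adjusted p = 0.00182). In APP23 mice the PBS libraries of Pigc ran from 9.95 through 10.01 to 10.04, the 1xLPS libraries stood at 9.94, 9.94, 9.95, 9.96 and 9.96, and the 4xLPS libraries at 9.94, 9.97, 9.99 and 10.01. The Pigc interaction for 4xLPS was -0.13 ± 0.025 (limma adjusted p = 0.0219). The 3 other core members of the N-glycosylation and GPI list, Alg1, Pmm1 and Pigv, which act early in sugar assembly, differed by 0.044 ± 0.016, 0.056 ± 0.017 and 0.035 ± 0.017 after wildtype 4xLPS and were not called (limma adjusted p of 0.127, 0.0816 and 0.291). Of the 57 measured genes of that list, 4 were in the pink module, all of them in the core, and 1 was called after wildtype 4xLPS.

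Tmem110, an endoplasmic reticulum protein that aids calcium entry through STIM1, had the most negative 4xLPS interaction of the core. In wildtype mice its libraries ran from 9.10 through 9.18 to 9.22 after PBS and from 9.18 through 9.28 to 9.32 after 4xLPS. In APP23 mice they ran from 9.19 through 9.29 to 9.35 after PBS and stood at 9.09, 9.13, 9.15 and 9.18 after 4xLPS, below all APP23 PBS libraries, which held for 1.03% of all entries. The Tmem110 interaction was -0.25 ± 0.048 (limma adjusted p = 0.0219), while neither single response was called: 0.11 ± 0.030 in wildtype (adjusted p = 0.0679) and -0.14 ± 0.037 in APP23 mice (adjusted p = 0.390). Tmem110 was higher in APP23 PBS than in wildtype PBS by 0.11 ± 0.030 (limma adjusted p = 0.0428). Sec16a, which organises the sites where cargo leaves the endoplasmic reticulum, rose by 0.10 ± 0.026 after wildtype 4xLPS (limma adjusted p = 0.0394), and its 4xLPS interaction was -0.18 ± 0.042 (limma adjusted p = 0.0417). Exoc6b, a subunit of the exocyst that tethers vesicles to the plasma membrane, differed by 0.047 ± 0.031 after wildtype 4xLPS (limma adjusted p = 0.449). Further calls in the class were Atl1, which fuses tubules of the endoplasmic reticulum (0.13 after wildtype 4xLPS), Preb, a factor for coat assembly at exit sites (0.072 after wildtype 4xLPS), B4galt1, a Golgi galactosyltransferase (0.062 in APP23 PBS), and Scamp5, a secretory carrier protein (0.041 in APP23 PBS).

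RNA synthesis, processing and translation also held 26 members, 2 of them called higher after wildtype 1xLPS, 4 after wildtype 4xLPS and 4 in APP23 PBS. Pcf11 takes part in cutting the 3′ ends of messenger RNAs and in ending transcription. Its wildtype PBS libraries had a lowest level of 10.06, a median of 10.13 and a highest of 10.21, the 1xLPS libraries 10.14, 10.17 and 10.24, and the 4xLPS libraries 10.24, 10.27 and 10.28. In APP23 mice Pcf11 ran from 10.18 through 10.24 to 10.31 after PBS, stood at 10.14, 10.17, 10.19, 10.20 and 10.21 after 1xLPS, and at 10.22, 10.25, 10.26 and 10.28 after 4xLPS. The wildtype 4xLPS libraries lay above all those of wildtype PBS, while the 1xLPS libraries of both genotypes overlapped wildtype PBS. The rise of Pcf11 was 0.13 ± 0.021 after wildtype 4xLPS (limma adjusted p = 0.00114), and in APP23 PBS it was 0.12 ± 0.021 higher (limma adjusted p = 0.00344).

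Pspc1, an RNA-binding protein of nuclear paraspeckles, was the member with a called genotype difference after 1xLPS. In wildtype mice its libraries ran from 8.06 through 8.10 to 8.16 after PBS and from 8.15 through 8.19 to 8.24 after 1xLPS. In APP23 mice they ran from 8.12 through 8.17 to 8.19 after PBS, and stood at 8.03, 8.06, 8.11, 8.12 and 8.12 after 1xLPS, below all wildtype 1xLPS libraries, which held for 0.88% of all entries. Pspc1 rose by 0.088 ± 0.019 after wildtype 1xLPS (limma adjusted p = 0.0295) and by 0.086 ± 0.021 after wildtype 4xLPS (adjusted p = 0.0373). After 1xLPS it was lower in APP23 than in wildtype, with a difference of -0.10 ± 0.022 (limma adjusted p = 0.0426), a call lost without any one of APP23 1xLPS replicates 1 to 4 or wildtype 1xLPS replicate 4 (adjusted p 0.0505 to 0.125). Its 1xLPS interaction was -0.16 ± 0.031 (limma adjusted p = 0.0440), lost without any one of APP23 1xLPS replicate 4, APP23 PBS replicates 3 and 5, wildtype 1xLPS replicates 3 and 7 and wildtype PBS replicate 9 (adjusted p 0.0507 to 0.0877) and, at 0.0758, when entries below the lower quartile of levels were left out.

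Ppm1g, a phosphatase with substrates among splicing factors, rose by 0.071 ± 0.016 after wildtype 1xLPS (limma adjusted p = 0.0430) and by 0.083 ± 0.018 after 4xLPS (adjusted p = 0.0219). Its libraries had a lowest, median and highest level of 9.77, 9.79 and 9.84 in wildtype PBS, 9.84, 9.87 and 9.92 after 1xLPS and 9.84, 9.89 and 9.92 after 4xLPS. In APP23 mice after 4xLPS Ppm1g stood at 9.77, 9.79, 9.81 and 9.89, so 3 of 4 libraries lay within the wildtype PBS range, and the interaction was -0.13 ± 0.029 (limma adjusted p = 0.0357). Ctif, which helps newly made messenger RNAs to be translated, ran from 6.52 through 6.58 to 6.64 in wildtype PBS and from 6.60 through 6.68 to 6.73 in APP23 PBS, a difference of 0.096 ± 0.022 (limma adjusted p = 0.0232). Sf3b6, a spliceosome subunit at the branch point, was higher in APP23 PBS by 0.059 ± 0.015 (limma adjusted p = 0.0330), as was Znrd1, a subunit of RNA polymerase I, by 0.054 ± 0.015 (adjusted p = 0.0496). Marf1, a regulator of RNA first studied in mouse oocytes, rose by 0.12 ± 0.027 after wildtype 4xLPS (limma adjusted p = 0.0219).

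The other named members of the transcription and translation lists had positive differences after wildtype 4xLPS that did not pass limma's test. They were 0.082 ± 0.032 for Prpf4 and 0.025 ± 0.015 for Clk3, a splicing factor and a kinase of splicing factors. They were 0.089 ± 0.026 for Taf5l, 0.064 ± 0.026 for Gtf2h4 and 0.041 ± 0.016 for Polr2g, from a histone acetylating co-activator, a general transcription factor and RNA polymerase II itself. For Utp11l (ribosome assembly) and Polr1d (RNA polymerases I and III) they were 0.019 ± 0.014 and 0.031 ± 0.013, and for the translation initiation factors Eif5b and Eif4a2 0.064 ± 0.021 and 0.017 ± 0.012. Over the full splicing list of 94 measured genes, 2 were called higher after wildtype 4xLPS and 5 in APP23 PBS, with list medians of 0.0091 and 0.010. Of 82 measured genes of RNA polymerase II and its partners, 6 were pink and 3 in the core, and limma called 1 of the 82 lower after wildtype 4xLPS and 1 lower in APP23 PBS, neither of them in the core.

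Chromatin, replication and DNA repair gave 11 members, of which 2 were called higher in APP23 PBS. Nthl1 removes oxidised bases from DNA. Its libraries ran from 8.07 through 8.12 to 8.16 in wildtype PBS and from 8.16 through 8.22 to 8.25 in APP23 PBS, without overlap, and stood at 8.07, 8.11, 8.11 and 8.20 in APP23 4xLPS. Nthl1 was higher in APP23 PBS by 0.091 ± 0.020 (limma adjusted p = 0.0172), and its 4xLPS interaction was -0.16 ± 0.032 (adjusted p = 0.0223). Orc2, a subunit of the complex that marks replication origins, was higher in APP23 PBS by 0.12 ± 0.024 (limma adjusted p = 0.0127).

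Ubiquitin, protein folding and heat shock held 10 members and the most changed gene of the core. Kbtbd8 is a substrate adaptor of a cullin-3 ubiquitin ligase. In wildtype mice its libraries ran from 9.15 through 9.19 to 9.24 after PBS, from 9.14 through 9.28 to 9.32 after 1xLPS and from 9.32 through 9.38 to 9.43 after 4xLPS. In APP23 mice they ran from 9.26 through 9.32 to 9.35 after PBS, stood at 9.23, 9.25, 9.26, 9.30 and 9.32 after 1xLPS, and at 9.20, 9.28, 9.33 and 9.38 after 4xLPS. All wildtype 4xLPS and all APP23 PBS libraries lay above all of wildtype PBS, while the APP23 4xLPS libraries spread over both ranges. The rise after wildtype 4xLPS was 0.19 ± 0.030, or 1.14-fold (limma adjusted p = 0.00114), the widest difference among group means in the core, and in APP23 PBS Kbtbd8 was 0.13 ± 0.030 higher (adjusted p = 0.0257). Its 4xLPS interaction was -0.21 ± 0.047 (limma adjusted p = 0.0391), lost without APP23 4xLPS replicate 1 (adjusted p = 0.0745), APP23 4xLPS replicate 4 (0.0691) or APP23 PBS replicate 4 (0.0532).

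Hsf2, a transcription factor of the heat shock family that works in development and with its relative Hsf1, was called after 1xLPS and after 4xLPS in wildtype mice and in APP23 PBS, comparisons that share the wildtype PBS libraries. Its wildtype PBS libraries were tight, from 6.504 through 6.518 to 6.533, against 6.53, 6.59 and 6.63 after 1xLPS and 6.58, 6.61 and 6.62 after 4xLPS. In APP23 mice Hsf2 ran from 6.57 through 6.59 to 6.61 after PBS, stood at 6.49, 6.49, 6.51, 6.52 and 6.58 after 1xLPS, and at 6.52, 6.56, 6.58 and 6.59 after 4xLPS. Thus 4 of 5 APP23 1xLPS libraries lay in or under the wildtype PBS range, and all 6 APP23 PBS libraries lay above it. The differences from wildtype PBS were 0.075 ± 0.015 in wildtype 1xLPS (limma adjusted p = 0.0221), 0.087 ± 0.016 in wildtype 4xLPS (adjusted p = 0.00695) and 0.069 ± 0.016 in APP23 PBS (adjusted p = 0.0257). Both interactions were called, at -0.14 ± 0.024 for 1xLPS (limma adjusted p = 0.0163) and -0.11 ± 0.026 for 4xLPS (adjusted p = 0.0417). The mean level of Hsf2 was low, at 6.56 against a median of 9.26 over all entries. Of 33 measured heat shock and chaperone genes Hsf2 was the only one called in these 3 comparisons. Cct4, a subunit of the cytosolic chaperonin and the other core gene of that list, differed by 0.023 ± 0.011 after wildtype 4xLPS (limma adjusted p = 0.277).

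Siah2, a ubiquitin ligase known for its part in the response to low oxygen, was the member whose wildtype 1xLPS libraries all lay above wildtype PBS, which held for 0.174% of all entries. Its libraries ran from 7.10 through 7.14 to 7.15 after PBS and from 7.17 through 7.23 to 7.29 after 1xLPS, a rise of 0.090 ± 0.019 (limma adjusted p = 0.0295). Dnajc28, a member of the J-domain co-chaperone family, rose by 0.091 ± 0.020 after wildtype 4xLPS (limma adjusted p = 0.0219).

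Kinases, phosphatases and signalling proteins numbered 9. Chuk, the IKK-alpha kinase of the NF-kB pathway, rose by 0.079 ± 0.016 after wildtype 4xLPS (limma adjusted p = 0.0139) and was 0.064 ± 0.016 higher in APP23 PBS (adjusted p = 0.0338). Its wildtype PBS libraries had a lowest, median and highest level of 10.23, 10.27 and 10.30, and the wildtype 4xLPS libraries 10.32, 10.35 and 10.39, with no overlap. Of 29 measured genes of Toll-like receptor signalling, Chuk was the only core member. The one other called in wildtype 1xLPS, wildtype 4xLPS or APP23 PBS against wildtype PBS was Tlr4, the LPS receptor itself, which lies outside the core and is named after its values were seen; it was lower in APP23 PBS, with a difference of -0.065 ± 0.016 (limma adjusted p = 0.0329). The median difference of the 29 was -0.0066 after wildtype 4xLPS and 0.0065 in APP23 PBS. Psd4, an exchange factor for the ARF6 GTPase, rose by 0.078 ± 0.019 after wildtype 4xLPS (limma adjusted p = 0.0382).

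The class of immune and heme-handling genes held 3 members. Roles were given to members only, so no share over all entries stands beside this count. Chil1, a chitinase-like protein that reactive glia and macrophages secrete, had the second place in membership (0.733), with wildtype libraries from 6.31 through 6.37 to 6.46 after PBS, from 6.36 through 6.46 to 6.55 after 1xLPS and from 6.36 through 6.49 to 6.59 after 4xLPS. These ranges overlapped, and the difference after 4xLPS was 0.11 ± 0.032 (limma adjusted p = 0.0766). Fcgr1, the high-affinity receptor for immunoglobulin G, differed by 0.035 ± 0.0091 after wildtype 1xLPS (limma adjusted p = 0.0799). Hmox1, which degrades heme, was the other member of this class, and none of the 3 was called by limma in any comparison.

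Metabolic enzymes gave 14 members, 3 of them called higher after wildtype 4xLPS and the same number in APP23 PBS. Fggy, a carbohydrate kinase, ran from 8.98 through 9.07 to 9.14 in wildtype PBS, from 9.18 through 9.23 to 9.28 in wildtype 4xLPS and from 9.09 through 9.20 to 9.25 in APP23 PBS. The 4xLPS libraries of Fggy did not overlap those of PBS. It rose by 0.16 ± 0.031 (limma adjusted p = 0.00806), the next largest called rise after Kbtbd8, and was 0.12 ± 0.031 higher in APP23 PBS (adjusted p = 0.0329). Sult1a1, which attaches sulfate to phenols, rose by 0.072 ± 0.018 after wildtype 4xLPS (limma adjusted p = 0.0379) and was 0.087 ± 0.018 higher in APP23 PBS (adjusted p = 0.0126). Nme3, a nucleoside diphosphate kinase, rose by 0.057 ± 0.013 after wildtype 4xLPS (limma adjusted p = 0.0312) and was 0.050 ± 0.013 higher in APP23 PBS (adjusted p = 0.0429). Phgdh and Amd1, which start the synthesis of serine and act in that of polyamines, differed by 0.037 ± 0.012 and 0.026 ± 0.0092 after wildtype 4xLPS and were not called.

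Centrosome, cilium and cytoskeleton held 8 members. Enkd1, a protein of centrosomes and microtubules, ran from 6.71 through 6.76 to 6.82 in wildtype PBS, from 6.80 through 6.88 to 6.89 after wildtype 1xLPS and from 6.83 through 6.87 to 6.88 in APP23 PBS. All APP23 PBS libraries lay above wildtype PBS, by 0.10 ± 0.023 (limma adjusted p = 0.0184), and the rise after 1xLPS was 0.096 ± 0.020 (adjusted p = 0.0295), the largest called after 1xLPS in the core. Mphosph9, a protein that keeps cilia from forming early, rose by 0.14 ± 0.027 after wildtype 4xLPS (limma adjusted p = 0.0100). Kif3b, a motor of transport within cilia, and Bbs12, a chaperonin-like factor of a ciliary complex, had differences of 0.086 ± 0.030 and 0.11 ± 0.043 after wildtype 4xLPS and were not called.

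Among the 32 members outside these classes, Ermap, a membrane protein of the butyrophilin family known from red cells, ran from 8.68 through 8.80 to 8.93 in wildtype PBS and from 8.90 through 8.94 to 9.01 in wildtype 4xLPS. It rose by 0.15 ± 0.034 (limma adjusted p = 0.0258), with ranges that overlapped. Mettl7a1, a methyltransferase-like protein of the endoplasmic reticulum and lipid droplets, ran from 8.44 through 8.54 to 8.59 in wildtype PBS and from 8.61 through 8.66 to 8.71 in APP23 PBS, with no overlap. The Mettl7a1 difference was 0.13 ± 0.025 (limma adjusted p = 0.00891). At the other end, Ube2s had the narrowest range of group means in the core (0.010) as well as its lowest level.

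Differences were smaller among pink genes outside the core. Over the 248 eligible pink genes outside the core, membership ran from -0.173 to 0.481. Their median difference after wildtype 4xLPS was 0.023, with 215 positive and 3 called higher by limma. Over the 49 left-out family members the median was 0.034, with 49 positive and 5 called higher. Of all entries, 0.88% were called higher in that comparison. In APP23 PBS against wildtype PBS the medians were 0.016 (193 of 248 positive) and 0.031 (43 of 49). A difference between these sets and the core is built into the ranking and was not tested.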

How the data were processed

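Per the labels' protocols, RNA of sorted microglia was amplified with a Smart-seq2 v4 kit. The submitters' processing notes name FastQC, STAR 2.3.060, HOMER, DESeq2 and limma and the build mm10; the sources used here do not state settings, annotation or strand use. The deposited expression values are log2 units as read here, normalized by the authors and, per the file headers, corrected by surrogate variable analysis; neither the log base nor whether that correction protected the groups is stated in them. Depth is unknown. The deposited co-expression table gives, per the file headers, each gene's module name, a score (its correlation with a module or trait) and the authors' unadjusted p-value. 1 column that no label matched was not used.

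Because of the correction, residuals around 6 group means span 24 of 33 directions. With limma 3.58.1 (R 4.3.3), every entry was given 6 group means and the 9 empty directions as covariates. Then came empirical Bayes with a mean-variance trend, 9 contrasts of groups, 2 interactions and Benjamini-Hochberg adjustment over 10915 entries. The fit was tested on simulated data whose 9 removed directions were orthogonal to the group means. Whether this holds for the authors' correction is not known, so that test cannot show whether errors are understated here. Errors after ± are SDs for levels and limma's standard errors for differences.

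Members, lists and roles were chosen with earlier results of these data known. Named were the 12 members with the highest membership, those beside the limit, up to 3 called members each way with the largest difference per contrast, up to 4 per list with at least 2 core members, and the extremes of level and range; unnamed gene models were left out. Same-numbered libraries of different groups had residual correlations from -0.378 to 0.283 (median 0.036), and differently numbered ones from -0.436 to 0.457 (median -0.0015). Anything shared by number may have been removed by the correction before deposit, so these values cannot show whether numbers pair libraries. Alternatives were 33 degrees of freedom, no trend, a filter on low values, median centring, a replicate block, other member sets and leaving out each library.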

Additional observations from a re-analysis of the deposited data

Results flagged for a closer look

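In 20 sets of values (19 named genes and the core mean) and 6 groups, 120 groups of values were examined for a library far from the others, which chance gives in about 1 of 20 groups; 5 were found, in 4 libraries. Tomm20 was low in wildtype 4xLPS replicate 4, at 8.81 against 8.89 to 8.93 in the other 5. Pebp1 was low in the same library (7.14, others from 7.17) and in APP23 4xLPS replicate 2 (7.15, others 7.17). Hsf2 was high in APP23 1xLPS replicate 5 (6.58, others 6.49 to 6.52), and Fggy was low in APP23 PBS replicate 3 (9.09, others 9.20 to 9.25).

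For 5 named members the response to LPS differed between genotypes by the interaction itself (limma). After 1xLPS these were Pspc1 (-0.16) and Hsf2 (-0.14), and after 4xLPS Tmem110 (-0.25), Kbtbd8 (-0.21) and Tomm20 (-0.19). In each the wildtype response was positive and the APP23 response negative in sign. No APP23 response to LPS was called, where 0% of all entries were, so the negative sign alone shows no fall. For Kbtbd8 the APP23 means, as differences from its mean over 39 libraries, were 0.041 after PBS and 0.023 after 4xLPS. Without APP23 1xLPS replicate 5 the Hsf2 interaction was -0.16. The 4xLPS interaction calls of Tmem110, Kbtbd8 and Tomm20 were lost when the replicate number was fitted as a block.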

How the results depend on the processing

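Counting 33 residual degrees of freedom gave 85 members called across the 6 groups (21.1% of all entries). In wildtype mice it gave 44 after 1xLPS, 87 after 4xLPS and 4 for 4xLPS against 1xLPS, all higher, where 3.34%, 5.08% and 0.321% of entries were called higher. In APP23 mice it gave 1 lower after 1xLPS (0.302% of entries), 2 lower after 4xLPS (0.11%) and 1 higher for 4xLPS against 1xLPS (0.797%). Between genotypes it gave 56 higher after PBS (5.38% of entries), 8 lower after 1xLPS (2.23%), 3 lower after 4xLPS (0.733%), and 23 and 44 negative interactions (1.92% and 2.94%). Without entries below the lower quartile of levels there were 3 after wildtype 1xLPS and 0 for the 1xLPS interaction. Hsf2, Enkd1 and Siah2, at mean levels of 6.56, 6.83 and 7.17, were among the entries left out. Their calls after wildtype 1xLPS and the Hsf2 interaction were therefore not tested there. Median centring gave 2 for the genotypes after 1xLPS. Over all pink genes of the table the medians were 0.022 (wildtype 1xLPS), 0.034 (wildtype 4xLPS), 0.028 (genotypes after PBS), -0.028 and -0.037 (interactions).

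Leaving out 1 library, in a choice extended after seeing the data to all 39, gave 11 to 26 members across the 6 groups, 4 to 9 after wildtype 1xLPS, 13 to 30 after wildtype 4xLPS, 12 to 33, 0 to 2 and 0 to 0 for the genotypes after PBS, 1xLPS and 4xLPS, 1 to 5 and 2 to 12 for the interactions, and 0 for the other contrasts. No called value changed sign under the alternatives run. The share of all entries called is not given for refits without 1 library, with the filter, with median centring or with the block below. Their counts do not show whether the members or all entries moved.

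With the replicate number as a block (16 degrees of freedom) the counts were 6 across the groups, 3 and 7 after wildtype 1xLPS and 4xLPS, 5 and 0 for the genotypes after PBS and 1xLPS and 0 for the 4xLPS interaction. Among the results of members named for their calls, 7 lost the call with the block and 8 kept it. In the corrected values 3 of 39 libraries correlated best with their own number, which cannot show whether numbers paired libraries before the correction. Depth is unknown, and group sizes of 4 to 9 limit what could be called.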
